A study of Mus musculus with 2 samples.

Results

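Long-read RNA-seq of the mouse adrenal gland was used here to describe 10 genes of fatty acid synthesis, desaturation and elongation: Fads1, Fads2, Fads3, Scd1, Scd2, Elovl1, Elovl5, Elovl6, Fasn and Acaca. They were chosen by name, and every transcript model that carried one of these names in either library was taken. The study held total RNA from adrenal tissue of C57BL/6J mice in a single group of 2 biological replicates, from The Jackson Laboratory, with age and developmental stage unknown. A description calls the mice wild type and female, while their sex field says that it was not collected. There was no second condition, so replicate 2 was set against replicate 1. All 10 genes had reads, out of 16674 annotated genes with reads over both libraries. They took 226 of the 92074 models of replicate 2 and 129 of the 88152 models of replicate 1.

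Fatty acid chains are built from acetyl-CoA. Acetyl-CoA carboxylase, encoded by Acaca, makes malonyl-CoA, and fatty acid synthase, encoded by Fasn, adds its carbons step by step to a saturated chain. Elongases (the Elovl family) lengthen chains in the endoplasmic reticulum, and each family member prefers chains of certain lengths. Stearoyl-CoA desaturases (Scd) set the first double bond of a monounsaturated chain. The front-end desaturases Fads2 and Fads1 act with Elovl5 to turn dietary linoleic and alpha-linolenic acid into arachidonic and other long polyunsaturated acids. In the adrenal cortex such acids are stored in cholesteryl esters, the source of cholesterol for steroid hormones.

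Counts are whole long reads, in which 1 read can show the whole exon chain of a transcript. Levels are given in CPM, reads scaled to a common total, from 587861 reads in replicate 2 and 810239 in replicate 1. A count of 0 allows up to 3 reads, or 5.10 CPM in replicate 2 and 3.70 CPM in replicate 1. The libraries differed in the transcripts they held, since the median annotated read belonged to a transcript of 3052 nt in replicate 2 but of 1648 nt in replicate 1. The unspliced share was 7.89% in replicate 2 and 14.4% in replicate 1. All 8 marker genes of the adrenal cortex chosen for the check of the tissue had reads, with a summed level of 98326 CPM in replicate 2 and 79426 CPM in replicate 1.

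The 10 genes together held 6769 reads in replicate 2 and 1702 in replicate 1, which is 1.15% of the reads of replicate 2 and 0.210% of those of replicate 1. Their summed level was 11515 CPM in replicate 2 and 2101 CPM in replicate 1, or 6808 ± 6657 CPM (SD, n = 2). Fads2 alone gave 4455 of these reads in replicate 2 and 804 in replicate 1. The SD was close to the mean, so the summed level is known only as the span between the libraries. In whole tissue, fewer cells of a type and less RNA per cell cannot be told apart.

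**Figure D1:**
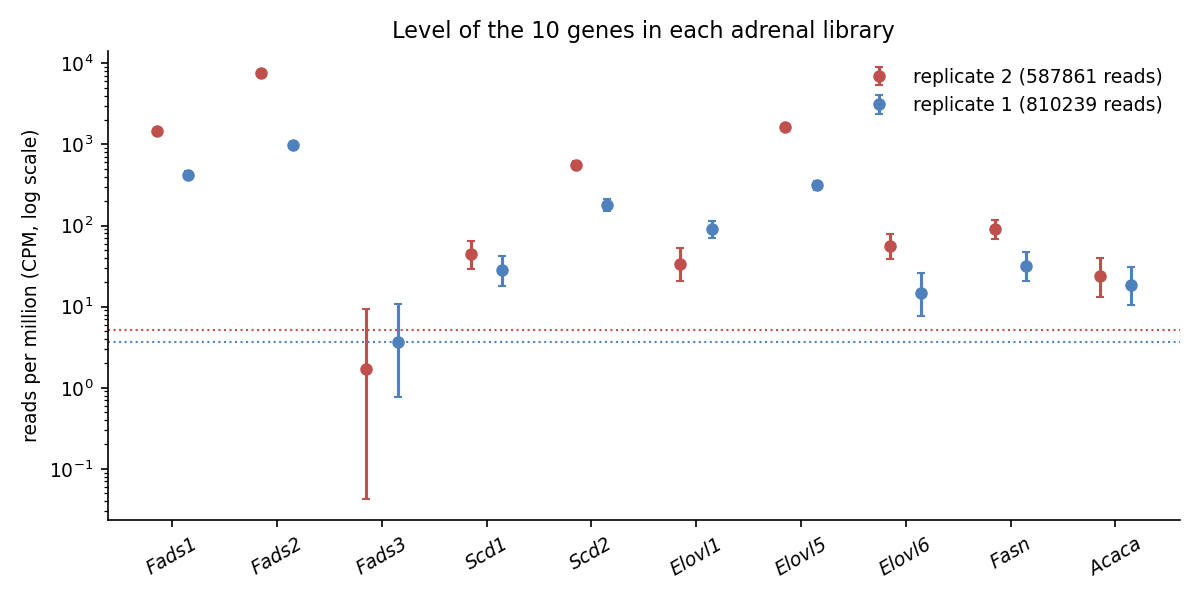
Level of each gene in CPM (log scale) in replicate 2 (red, left of each pair) and replicate 1 (blue, right), with 95% Clopper-Pearson intervals for counting error; dotted lines mark 3 reads in each library (5.10 and 3.70 CPM). Fads2 is highest in both libraries, with 7578 CPM in replicate 2 and 992 CPM in replicate 1, and only Fads3 lies at or below the dotted lines.

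Fads2, the delta-6 desaturase that opens the polyunsaturated pathway, was the most abundant of the 10 genes in both libraries. It reached 7578 CPM in replicate 2 and 992 CPM in replicate 1, or 4285 ± 4657 CPM (SD, n = 2). That put it at rank 5 among all genes of replicate 2 and at rank 105 in replicate 1. Fads1, the delta-5 desaturase that acts later in the pathway, had 1478 CPM in replicate 2 and 426 CPM in replicate 1, or 952 ± 744 CPM (SD, n = 2). Fads3, the third gene of the cluster, had 1 read in replicate 2 and 3 reads in replicate 1, at or under the limit that a count of 0 allows. Fads1 and Fads2 were thus high and Fads3 near 0 in both libraries.

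The 3 genes lie together on chromosome 19 (mm10). Fads3 is at chr19:10041569-10060110 on the plus strand, Fads2 at chr19:10062765-10101746 on the minus strand and Fads1 at chr19:10182888-10196877 on the plus strand. Their reference transcripts, Fads1-201, Fads2-201 and Fads3-201, have 12 exons each, and 9 of the 12 have the same length in all 3 genes. Exon 5 differs by whole codons, with 129 nt in Fads1, 126 nt in Fads2 and 123 nt in Fads3. Because Fads1-201 (3460 nt) and Fads2-201 (3150 nt) are of similar length, their reads can be set against each other. There were 5.13 reads of Fads2 per read of Fads1 in replicate 2 (95% interval 4.77 to 5.52) and 2.33 in replicate 1 (2.05 to 2.65). Fads2 was thus ahead of Fads1 in both libraries, and the intervals of the 2 ratios did not overlap.

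Most reads of both genes followed the annotated exon chain from the first exon to the last. The complete chain of Fads2-201 took 4142 of 4455 reads in replicate 2 (93.0%, interval 92.2 to 93.7) and 670 of 804 in replicate 1 (83.3%, 80.6 to 85.8). Fads1-201 took 749 of 869 reads in replicate 2 (86.2%, 83.7 to 88.4) and 264 of 345 in replicate 1 (76.5%, 71.7 to 80.9). Every junction of both reference transcripts was read in the data. In replicate 1, 40 reads of Fads1 held only the last exon, and no such read was found in replicate 2. For Fads3, 2 of the 3 reads of replicate 1 were complete Fads3-201 chains, while the single read of replicate 2 was unspliced.

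**Figure D2:**
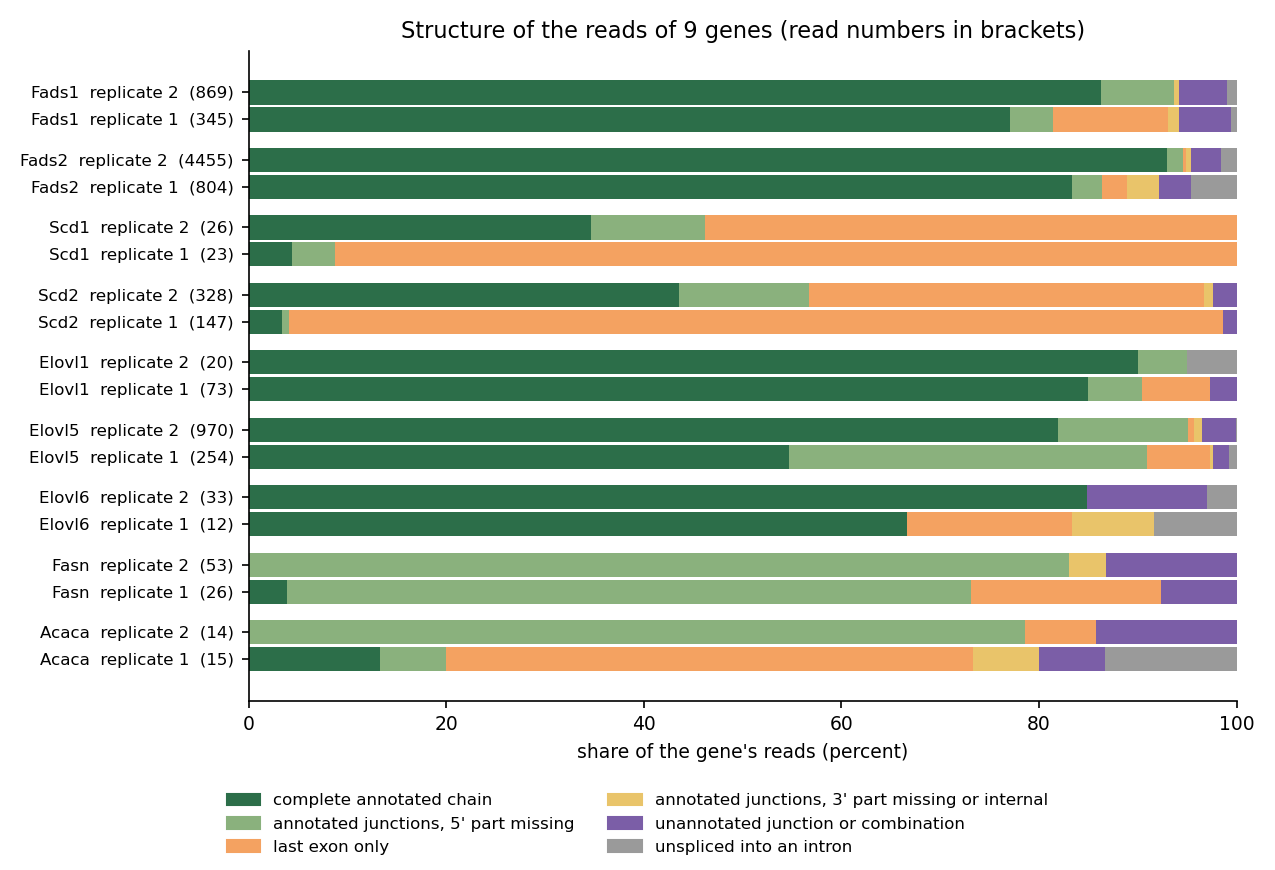
Share of each gene's reads (percent) by exon structure, with replicate 2 above replicate 1 for each gene and the number of reads in brackets; Fads3, with 4 reads over both libraries, is left out. Complete annotated chains dominate Fads1, Fads2, Elovl1 and Elovl6 in both libraries, last-exon reads make up 94.6% of Scd2 in replicate 1, and Fasn has almost no complete chain.

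Fads1 and Fads2 shared an uncommon splice variant in the same exon. Exon 7 is 77 nt long in all 3 genes. In Fads1, 5 reads of replicate 2 and 1 of replicate 1 left it 3 nt before its annotated end. In Fads2, 16 reads of replicate 2 and 0 of 707 annotated reads in replicate 1 did so. The variant made up 0.602% of the reads through this Fads1 donor in replicate 2 (0.196 to 1.40) and 0.352% in replicate 1 (0.00891 to 1.95). In Fads2 it made up 0.371% in replicate 2 (0.212 to 0.601), and a count of 0 in replicate 1 has an upper bound of 0.520%. The 3 bases left out are the same in both genes. The exons are shown because they carry this shared end, with their last 3 bases in capitals, read from the GENCODE M21 transcripts on mm10.
Fads1 exon 7 (chr19:10192912-10192988, plus strand): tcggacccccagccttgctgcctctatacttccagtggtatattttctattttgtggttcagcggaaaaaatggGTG
Fads2 exon 7 (chr19:10070272-10070348, minus strand): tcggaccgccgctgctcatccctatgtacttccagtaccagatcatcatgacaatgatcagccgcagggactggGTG
Fads3 exon 7 (chr19:10055107-10055183, plus strand): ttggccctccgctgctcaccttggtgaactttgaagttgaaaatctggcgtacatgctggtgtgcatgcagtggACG

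The Fads1 and Fads2 exons end in GTG, which begins with GT, the letters with which most introns begin, and the Fads3 exon ends in ACG. The exons of Fads1 and Fads2 are otherwise only moderately alike, with 43 of 77 bases the same (55.8%). The GTG is a whole codon in frame in both genes, codon 297 of 447 in Fads1 and codon 294 of 444 in Fads2, so the short form lacks 1 codon and keeps its reading frame. Across the 157 donors of the 10 reference transcripts, the exons that end in GTG are exon 7 of Fads1, exon 7 of Fads2 and exon 8 of Acaca. Over all genes, junctions were taken that become an annotated junction when the donor is moved 3 nt downstream. In replicate 2, 205 of 205 such junctions lay in exons that end in GT and 1 more base. In replicate 1 it was 155 of 157 such junctions. Of 250170 annotated donors 2.20% follow such an end, and 1.87% follow GTG. In the shifted junctions the last 3 exon bases become the first of the intron. An aligner that favours introns beginning with GT would give such shares in any gene, so they say nothing further about these exons. The aligner used by the authors is not given in the sources used here, and its part in where these junctions were placed was not tested.

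A second shared place was exon 4 of Fads1 and Fads2, which is 102 nt long in both. There 10 Fads1 reads of replicate 2 and 2 of replicate 1 used a donor 4 nt past the annotated one. In Fads2 it was 13 reads of replicate 2 and 3 of replicate 1. This shift breaks the reading frame. It made up 1.24% of the reads through the Fads1 donor in replicate 2 (0.595 to 2.26) and 0.694% in replicate 1 (0.0842 to 2.49), and 0.301% in replicate 2 (0.161 to 0.515) and 0.425% in replicate 1 (0.0877 to 1.24) for Fads2. Over all genes a donor 4 nt downstream is the usual form, with 66.9% of all reads on donors moved by up to 10 nt in replicate 2 and 60.3% in replicate 1. Here each donor was measured from the nearest annotated one, so this set differs slightly from the junctions counted for exon ends. A donor 3 nt upstream is rare, with 2.97% in replicate 2 and 3.92% in replicate 1. Among the 10 genes, the 3 nt form held 21 of 90 such reads in replicate 2 (23.3%) and 1 of 15 in replicate 1 (6.67%), and all of these came from exon 7 of Fads1 and Fads2.

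**Figure D3:**
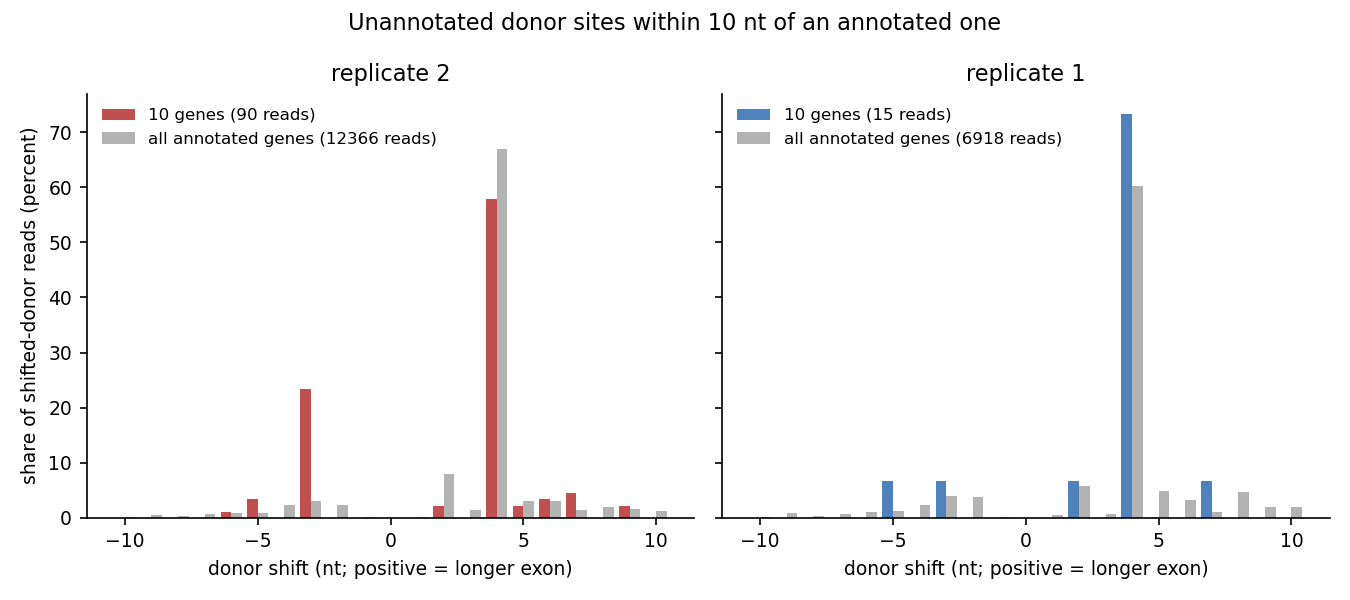
Share of reads on unannotated donor sites (percent) by distance from the annotated donor in nt, with replicate 2 on the left and replicate 1 on the right; coloured bars are the 10 genes (90 reads and 15 reads) and grey bars all annotated genes. Both sets peak at 4 nt, and a second coloured bar stands at -3 nt in replicate 2, where it reaches 23.3% against 2.97% for all genes.

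Whole exons were skipped in few Fads reads. Exon 5 of Fads2 was skipped in 11 reads of replicate 2 and 1 of replicate 1, or 0.255% of the reads through it in replicate 2 (0.127 to 0.456) and 0.142% in replicate 1 (0.00360 to 0.789). Its 126 nt are 42 whole codons, so that the skip keeps the frame. Of these codons 6 are for histidine (CAT or CAC), out of 30 in the gene. They include a histidine box, a cluster of histidines known to bind the iron of the active site. Exon 7 of Fads2, which is 77 nt long and out of frame, was skipped in 5 reads of replicate 2 and 1 of replicate 1. Exon 11 of Fads1, 126 nt long and in frame, was skipped in 3 reads of replicate 2 and 1 of replicate 1. Exon 5 is shown in capitals with 15 bases of each neighbour, followed by the sequence that the skip joins, with exon 6 in capitals.
Fads2 exon 5 and neighbours (chr19:10082565-10082690 for the exon, minus strand): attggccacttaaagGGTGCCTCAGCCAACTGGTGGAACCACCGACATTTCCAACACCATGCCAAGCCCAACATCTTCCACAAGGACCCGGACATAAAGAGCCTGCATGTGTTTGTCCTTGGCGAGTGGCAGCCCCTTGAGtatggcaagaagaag
Fads2 exon 4 joined to exon 6: attggccacttaaagTATGGCAAGAAGAAG

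A small set of Fads2 reads began far upstream of the annotated gene. Their first exon lay at chr19:10121862-10121971, or at chr19:10121840-10121971 with a donor 22 nt further on, about 20.1 kb before the annotated start. GENCODE M21 places no gene there, between Fads2 and Fads1. In most of these reads this exon was spliced directly to exon 2 of Fads2, without the annotated exon 1. The first form joined to exon 2 had 17 reads in replicate 2 and 8 in replicate 1, and the second 8 reads in replicate 2 and 2 in replicate 1. In 2 further reads of each library the first form was joined to another unannotated exon, and in 1 further read of replicate 1 to a different site. That other exon was joined to exon 2 in 2 reads of replicate 2 and in 0 of replicate 1. The further reads of replicate 1 were thus not shown to reach exon 2. First exons over 1 kb upstream made up 28 of 4299 reads with a Fads2 first exon in replicate 2 (0.651%, 0.433 to 0.940) and 13 of 721 in replicate 1 (1.80%, 0.963 to 3.06). The share was higher in replicate 1 and these intervals did not overlap, but the 13 reads include those not shown to reach exon 2. Whether the intervals stay apart without them, and the difference itself, were not tested. Exon 1 holds the annotated start codon and 69 codons of the 444. In the annotated frame the next ATG from exon 2 on is codon 123, in exon 3. The bases of the upstream exon were not read here, so whether it holds a start codon in frame is not known. The part of the annotated protein before codon 123 is where front-end desaturases carry their cytochrome b5-like domain, which takes up electrons. Whether these reads code for that part was not tested.

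Some Fads reads stopped inside introns, and 1 of 3 such places in Fads1 and 2 of 8 in Fads2 were found in both libraries. In intron 1 of Fads2, 67 unspliced reads of replicate 2 and 35 of replicate 1 belonged to models that ended at 10097816 and 10097823 on chromosome 19. In intron 4 of Fads2, 7 reads of replicate 2 and 17 of replicate 1 ended between 10086468 and 10086500. In intron 7 of Fads2 the places differed, with 13 reads at 10068105 in replicate 2 alone and 5 at 10068279 in replicate 1 alone. Over all such places, Fads2 had 92 reads in replicate 2 (2.07%, 1.67 to 2.53) and 57 in replicate 1 (7.09%, 5.41 to 9.09). In intron 5 of Fads1, 6 reads of replicate 2 and 9 of replicate 1 ended at 10187373, which is the annotated end of the retained-intron transcript Fads1-206. The bounds are those of the models, and the program that made them can move a read's end to an annotated one.

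The stearoyl-CoA desaturases were present at unequal levels. Scd2, which predominates in brain and in many tissues outside the liver, had 558 CPM in replicate 2 and 181 CPM in replicate 1, or 370 ± 266 CPM (SD, n = 2). Scd1, the main form of mouse liver and fat, had 44.2 CPM in replicate 2 and 28.4 CPM in replicate 1, or 36.3 ± 11.2 CPM (SD, n = 2). There were 12.6 Scd2 reads per Scd1 read in replicate 2 (8.45 to 19.6) and 6.39 in replicate 1 (4.10 to 10.4), from transcripts of 5455 nt and 4832 nt. Scd2 was the higher of the pair in both libraries, and the intervals of the ratios overlapped. Scd3 and Scd4, the remaining mouse genes of the family, had no read. The Scd genes are close copies, so a few reads may have been split between them by the authors' counting.

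Many Scd reads were partial. The last exon is 3864 nt long in Scd2 and 3664 nt in Scd1, most of each transcript. Of the Scd2 reads, 131 of 328 in replicate 2 (39.9%, 34.6 to 45.5) and 139 of 147 in replicate 1 (94.6%, 89.6 to 97.6) lay wholly in the last exon. Complete Scd2-201 chains numbered 143 in replicate 2 (43.6%) and 5 in replicate 1 (3.40%). For Scd1, last-exon reads numbered 14 of 26 in replicate 2 and 21 of 23 in replicate 1, and complete chains 9 in replicate 2 and 1 in replicate 1. Scd2 lies at chr19:44293674-44306864 on the plus strand and Scd1 at chr19:44394455-44407879 on the minus strand. A microRNA gene, Mir5114, lies inside the last exon of Scd2 on the same strand (chr19:44303171-44303231). It was given 42 reads in replicate 2 and 2 in replicate 1 that are not counted with Scd2, and whether these are Scd2 reads was not tested.

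Of the elongases, Elovl5 was the most abundant. Elovl5 lengthens the products of Fads2. It had 1650 CPM in replicate 2 and 313 CPM in replicate 1, or 982 ± 945 CPM (SD, n = 2). Elovl1, which makes very long saturated chains, had 34.0 CPM in replicate 2 and 90.1 CPM in replicate 1, or 62.1 ± 39.7 CPM (SD, n = 2). Elovl6, which lengthens palmitate to stearate, had 56.1 CPM in replicate 2 and 14.8 CPM in replicate 1, or 35.5 ± 29.2 CPM (SD, n = 2). Elovl5 was highest in both libraries, whereas Elovl1 and Elovl6 changed places between them. There were 48.5 Elovl5 reads per Elovl1 read in replicate 2 (31.2 to 79.8) and 3.48 in replicate 1 (2.67 to 4.58), intervals that do not overlap. Over all genes the log2 ratio of replicate 2 over replicate 1 followed transcript length. That trend is at 0.96 for Elovl5 (2782 nt), -1.53 for Elovl1 (1811 nt) and 0.67 for Elovl6 (2610 nt). Neither the gap between the 2 ratios nor the change of places was separated from it. There were 29.4 Elovl5 reads per Elovl6 read in replicate 2 (20.8 to 42.9) and 21.2 in replicate 1 (11.9 to 41.5), intervals that overlap.

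Elovl5-201, a transcript of 8 exons and 2782 nt, gave complete chains in 795 of 970 reads in replicate 2 (82.0%, 79.4 to 84.3) and 138 of 254 in replicate 1 (54.3%, 48.0 to 60.6). The main partial form began at exon 5, with 59 reads in replicate 2 (6.08%) and 47 in replicate 1 (18.5%). Another form began at exon 4 and had 23 reads in replicate 2 and 21 in replicate 1. Of the reads that held a first exon, 814 of 831 in replicate 2 (98.0%) and 143 of 144 in replicate 1 (99.3%) had the annotated one. Unannotated first exons inside intron 1, over 5 kb past the start, numbered 13 in replicate 2 (1.56%, 0.836 to 2.66) and 1 in replicate 1 (0.694%, 0.0176 to 3.81). The annotated start codon of Elovl5 is in exon 2, so those reads still hold it. In intron 3, 10 reads of replicate 2 and 3 of replicate 1 ended between 77964876 and 77964878 on chromosome 9.

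Since nearly all Elovl5 reads with a first exon had the annotated one, the 249 bases before its start are shown, from RefSeq on GRCm38.p6, with motif matches in capitals. Of the 4 motifs searched on both strands, CCAAT (the box bound by NF-Y) matched 2 times on the minus strand, beginning 70 and 16 bases before the start. CACGTG (an E-box) matched once, 160 bases before it. GGGCGG (a GC box) and TCACNCCAC (a sterol response element) had no match. The matches do not overlap. Among 32851 promoter windows of this length, 33.8% hold CCAAT, 6.00% CACGTG, 32.6% GGGCGG and 1.04% TCACNCCAC. A match describes letters and no binding.
Elovl5 promoter (chr9:77917115-77917363, plus strand): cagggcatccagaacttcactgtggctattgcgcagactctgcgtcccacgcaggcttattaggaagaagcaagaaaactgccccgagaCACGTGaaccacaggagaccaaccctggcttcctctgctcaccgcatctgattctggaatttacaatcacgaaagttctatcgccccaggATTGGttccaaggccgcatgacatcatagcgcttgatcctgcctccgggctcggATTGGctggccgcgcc

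Elovl6 was read as 2 annotated transcripts. Elovl6-205 had 21 of 33 reads in replicate 2 and 5 of 12 in replicate 1, and Elovl6-201 had 7 in replicate 2 and 3 in replicate 1. The pair code for the same protein and differ in a short intron before the start codon, which Elovl6-201 splices out and Elovl6-205 keeps. A first exon that ends at this intron was found in 7 of 32 first-exon reads in replicate 2 (21.9%) and 4 of 9 in replicate 1 (44.4%). The annotation also gives them unlike 3′ ends, but a read was assigned by its junctions, so the end of these reads is not known. Elovl1 was read almost wholly as Elovl1-201, with 17 of 20 reads in replicate 2 and 62 of 73 in replicate 1. Elovl1 overlaps Cdc20 on the opposite strand, which had 2 reads in replicate 2 and 4 in replicate 1.

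Fasn and Acaca, which supply the chain itself, were low in both libraries. Fasn had 90.2 CPM in replicate 2 and 32.1 CPM in replicate 1, or 61.1 ± 41.1 CPM (SD, n = 2). Acaca had 23.8 CPM in replicate 2 and 18.5 CPM in replicate 1, or 21.2 ± 3.75 CPM (SD, n = 2). Their transcripts are the longest of the 10, with 10050 nt and 43 exons for Fasn-201 and 9513 nt and 56 exons for Acaca-202, and no complete Fasn-201 or Acaca-202 chain was read. The last junction of Fasn was crossed by 51 of 53 reads in replicate 2 and 21 of 26 in replicate 1. Junction 22 of the 42, 5806 nt from the 3′ end, was crossed by 9 reads in replicate 2 and 2 in replicate 1, and the first junction by 1 in replicate 2 and 0 in replicate 1. Fasn reads thus came mainly from the 3′ part, and the counts say little about its 5′ exons. Acaca was thinner still: its last junction was crossed by 11 of 14 reads in replicate 2 and 1 of 15 in replicate 1, where 8 reads lay wholly in the last exon. An annotated first exon of Acaca whose donor lies 6.80 kb past the start of Acaca-202 was read 2 times in each library.

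**Figure D4:**
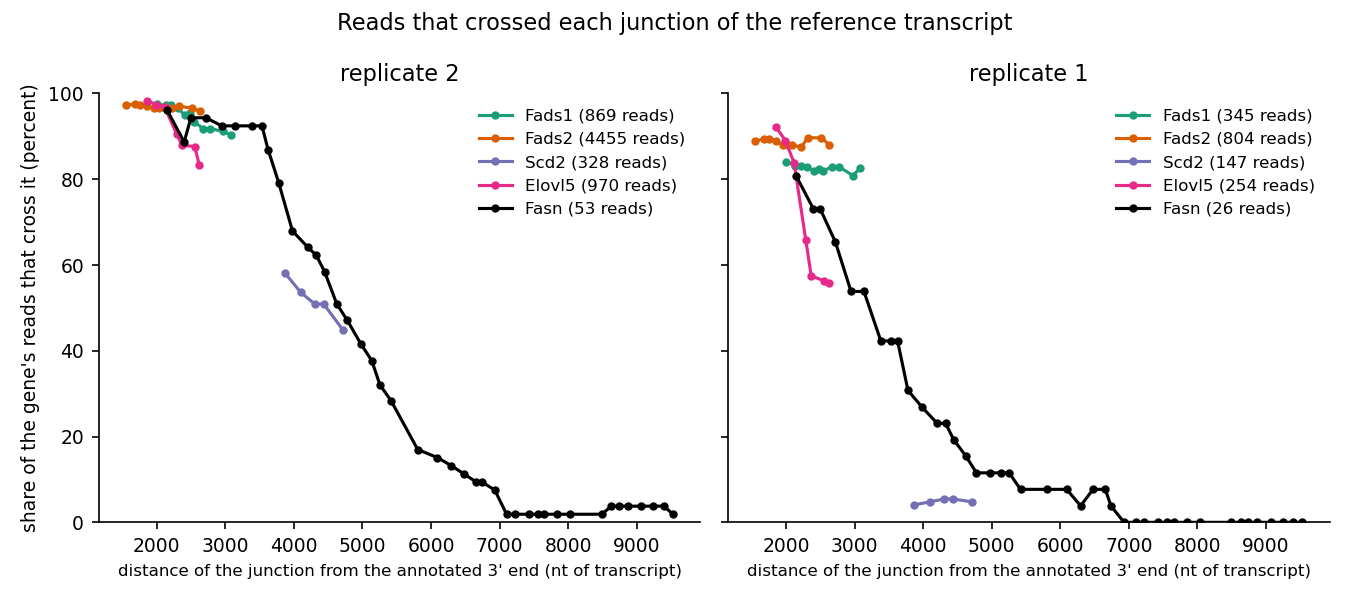
Share of each gene's reads (percent) that crossed each junction of the reference transcript, by the distance of the junction from the annotated 3′ end in nt of transcript, with replicate 2 on the left and replicate 1 on the right. Fads1 and Fads2 stay above 80% to the first junction in both libraries, Elovl5 falls to 55.9% in replicate 1, Scd2 lies between 44.8% and 58.2% in replicate 2 and between 4.08% and 5.44% in replicate 1, and Fasn declines towards 0 in both.

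The levels of the 2 libraries were compared with an exact two-sided binomial test on each gene's reads, given library sizes scaled by TMM (edgeR) and Benjamini-Hochberg adjustment over all genes tested. It compares these libraries and their reads, not conditions, and has no replicate check. Of all 9809 genes tested, 66.2% were called at an adjusted p of 0.05, 30.6% as higher and 35.6% as lower in replicate 2. Of the 9 members with at least 10 reads, 7 were called, 6 as higher and 1 as lower in replicate 2. A high share of calls was thus common to all genes. Fads3, with 4 reads, was not tested. The median log2 ratio of the 9 was 1.15, against -0.01 over all genes. Folds use the TMM-scaled sizes and therefore differ by a constant factor from the ratio of the CPM values.

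Fads2 was 5.51-fold higher in replicate 2 (5.11 to 5.95). Elovl5 was 3.80-fold higher (3.30 to 4.38, adjusted p = 2.1e-96 by the exact binomial test). Fads1 was 2.50-fold higher (2.21 to 2.85, adjusted p = 1.1e-50 by the same test), Elovl6 2.73-fold (1.38 to 5.81), Scd2 2.22-fold (1.82 to 2.71) and Fasn 2.03-fold (1.25 to 3.38). Elovl1 was the 1 member called the other way, 3.67-fold lower in replicate 2, with an adjusted p of 5.7e-08 by the exact binomial test. Scd1 and Acaca were not called, at log2 ratios of 0.17 and -0.10, with fold intervals of 0.617 to 2.06 and 0.415 to 2.06.

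The ratio between the libraries followed transcript length over all genes, with short transcripts lower and long ones higher in replicate 2. Elovl1-201, the shortest reference transcript at 1811 nt, lies where the trend is at -1.53 (log2), and Fads1-201 where it is at 1.49. With the trend removed, 42.4% of 9173 genes were called, and 5 of the 9 members. Fads2 remained higher in replicate 2 at a log2 ratio of 1.09 (adjusted p = 4.8e-100, exact binomial test), as did Elovl5 at 0.96 (adjusted p = 2.1e-22). Fads1 came to -0.17, Scd2 to 0.09, Elovl1 to -0.32 and Elovl6 to 0.75, none of them called. Scd1 came to -1.01, called lower in replicate 2 (adjusted p = 0.045, exact binomial test). Without the trend removed but with spliced models only, Scd1 was instead called higher in replicate 2, at a log2 ratio of 2.03 (adjusted p = 0.041, exact binomial test). Scd2, at 1.15 with all models, came to 4.25 with spliced models only (adjusted p = 1.3e-39) and 4.64 with annotated models only (adjusted p = 3.2e-34), both by the exact binomial test. For Fasn and Acaca, the remaining members called, the annotated model used for the trend is short (976 nt and 431 nt), so this value has no meaning for them. With the length of the longest coding transcript in its place, a choice made after seeing the data, 42.0% of 9440 genes were called. Among the members these were Fads2 (1.15) and Elovl5 (1.05), and the other 7 were not called. Fasn then came to 0.56 and Acaca to -0.60.

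**Figure D5:**
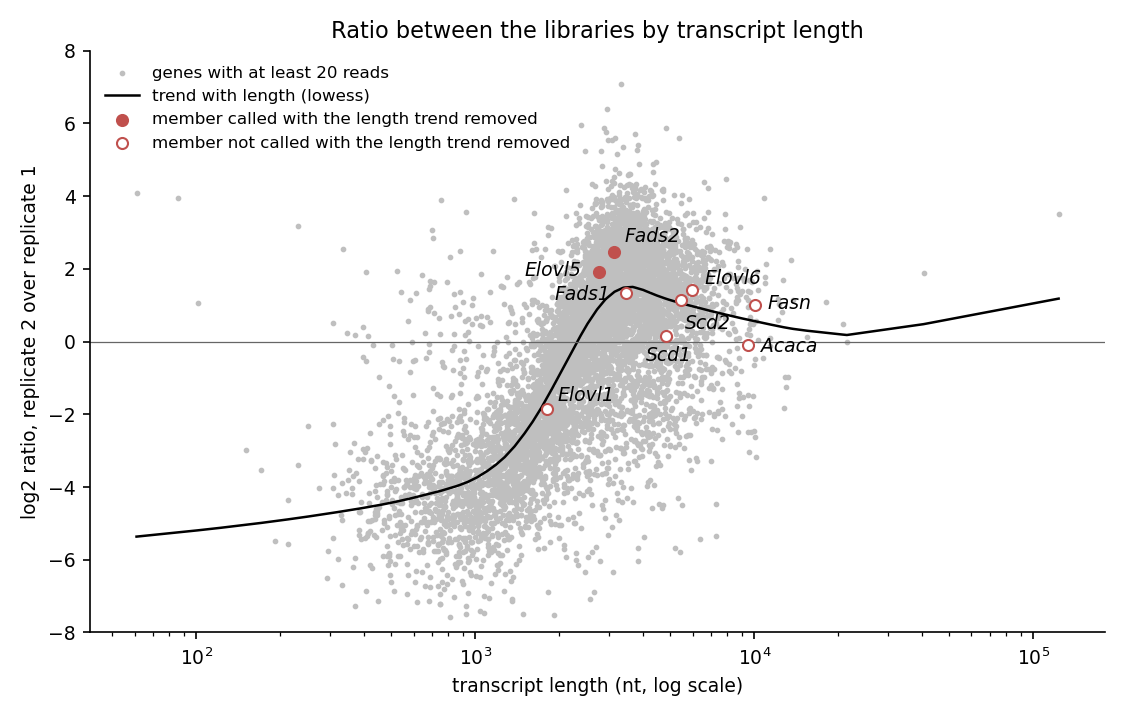
Log2 ratio of replicate 2 over replicate 1 by transcript length in nt (log scale) for genes with at least 20 reads (grey), with their lowess trend (line), in which a gene's length is that of its main annotated model; the 9 tested members stand at the length of their longest coding transcript, filled where called with that length's trend removed. Fads2 (2.46) and Elovl5 (1.92) lie above the line, Fads1 (1.32), Scd2 (1.15) and Elovl1 (-1.85) close to it.

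The share of reads on annotated models was 86.9% for the 10 genes in replicate 2 and 67.9% in replicate 1, or 77.4 ± 13.4% (SD, n = 2). Over all reads of a library the share was 72.3% in replicate 2 and 74.6% in replicate 1. The share of the 10 genes pools their reads, most of which in replicate 2 came from Fads2. By gene it ran in replicate 2 from 93.0% for Fads2 to 34.6% for Scd1 and 0% for Fasn and Acaca. Taken gene by gene, the median share over all genes with at least 10 reads was 73.3% in replicate 2 and 76.5% in replicate 1. The use of models was compared with Fisher's exact test, two-sided, on the reads of the most used model against all others, with Benjamini-Hochberg adjustment over 4733 genes, of which 28.7% were called. Of the 9 members tested, 6 were called. The share of the complete chain was higher in replicate 2 for Fads1 by 9.67 percentage points (adjusted p = 0.00068), for Fads2 by 9.64 (adjusted p = 6.2e-15) and for Elovl5 by 27.6 (adjusted p = 1.3e-16), all by Fisher's exact test. The pooled unspliced reads, mostly from the last exon, took a smaller share in replicate 2, by Fisher's exact test. The difference was -54.6 points for Scd2 (adjusted p = 7.5e-31), -37.5 for Scd1 (adjusted p = 0.021) and -59.5 for Acaca (adjusted p = 0.0092). Elovl1, Elovl6 and Fasn were not called.

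The calls changed with the kinds of models counted. With incomplete matches left out, Fads2, Scd1 and Scd2 were called, and 19.6% of all genes. With annotated models only, 0 of the 3 members that could still be tested (Fads1, Elovl1 and Elovl5) were called by Fisher's exact test, and their lowest unadjusted p was 0.149, against 9.54% of all genes called. Fads1-201 then held 99.9% of the annotated reads of its gene in replicate 2 and 99.2% in replicate 1, and Elovl5-201 100% in replicate 2 and 99.3% in replicate 1. No exchange of one annotated transcript for another was detectable in these 3 genes at this depth. Elovl6 had too few annotated reads for this test, and its use of Elovl6-205 was not called with all models counted (adjusted p = 0.49, Fisher's exact test).

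Unannotated chains were many and mostly seen in 1 library. The 10 genes had 121 in replicate 2 and 42 in replicate 1, with 14 in both, which is 11.6% of those of replicate 2 and 33.3% of those of replicate 1. Over all genes the shares were 12.4% of the chains of replicate 2 and 20.8% of those of replicate 1. Fads2 had 9 of the 14, Fads1 3 and Elovl5 2. Of all junctions crossed by reads of the 10 genes, 0.378% in replicate 2 and 0.405% in replicate 1 were unannotated, against 0.973% in replicate 2 and 0.748% in replicate 1 over all genes.

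Genes of related steps were read beside the members. Of the other elongases, Elovl2 and Elovl3 had no read in either library, Elovl4 had 1 in each, and Elovl7 had 10.2 CPM in replicate 2 and 6.17 CPM in replicate 1 and was not called. The absence of reads for Elovl2, the elongase of the last steps towards docosahexaenoic acid, allows up to 5.10 CPM in replicate 2 and 3.70 CPM in replicate 1. Of the other desaturases, Degs1, a ceramide desaturase, had 66.3 CPM in replicate 2 and 136 CPM in replicate 1, was the only one tested and was called lower in replicate 2. Fads6 had 3 reads in each library, and Degs2, Scd3 and Scd4 had none.

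After the elongases, reduction, dehydration and a second reduction complete each cycle. Of the 5 genes tested for these steps, 1 was called higher, 3 lower and 1 was not called, against 66.2% of all genes called in either direction. With the length trend removed, 4 could be tested and 2 were called higher and 2 lower, against 42.4% of all genes, and the median log2 ratio came to 0.21, against -2.82 with the trend left in. Hacd3, a dehydratase, had 1963 CPM in replicate 2 and 343 CPM in replicate 1 and was called higher. Tecr, the reductase of the last step, had 59.5 CPM in replicate 2 and 803 CPM in replicate 1 and was called lower. Both calls remained with the length trend removed, at log2 ratios of 1.19 and -0.76, and Hsd17b12, the reductase of the first reduction, was then called higher at 1.59. Tecrl had no read. Electrons reach the desaturases through cytochrome b5 and its reductase. Of 5 such genes tested, 1 was called higher and 3 lower, and 1 and 2 with the trend removed. Cyb5b had 1943 CPM in replicate 2 and 311 CPM in replicate 1 and was called higher. Cyb5a went the other way, with 10 reads in replicate 2 and 219 in replicate 1, and was called lower (log2 ratio -4.39). With the length trend removed Cyb5a was not called (-0.39). Which of Cyb5a and Cyb5b serves the desaturases here was not tested. Cyb5r3 had 230 CPM in replicate 2 and 794 CPM in replicate 1 and was called lower. Cyb5r2 had no read.

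Among the genes that supply acetyl-CoA, malonyl-CoA and NADPH, Acly and Me1 had the most reads in replicate 2, and Idh1 and Acly in replicate 1. Acly, which makes cytosolic acetyl-CoA from citrate, had 3833 CPM in replicate 2 and 605 CPM in replicate 1 from a model of 4393 nt. Me1, which makes NADPH, had 2826 CPM in replicate 2 and 375 CPM in replicate 1 from a model of 3288 nt. Of the 8 genes tested in this list, 4 were called higher in replicate 2 and 1 lower, against 66.2% of all genes called in either direction. With the length trend removed 5 were higher and 2 lower, against 42.4% of all genes, with Acly at 0.90 and Me1 at 1.00 (log2). The median log2 ratio of the list was 0.88, or 0.95 with the trend removed, against -0.01 and 0.07 over all genes.

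Of 11 regulators tested, 3 were called higher and 3 lower, and with the length trend removed 2 and 1, against 66.2% and 42.4% of all genes called in either direction. Srebf1 encodes the sterol regulatory element binding factor of lipid synthesis. It was the most abundant in replicate 2 and by mean level but not in replicate 1, with 534 CPM in replicate 2 and 30.9 CPM in replicate 1. It remained higher in replicate 2 with the length trend removed, at a log2 ratio of 2.30 (adjusted p = 9.3e-21, exact binomial test). Insig1, which holds this factor in the endoplasmic reticulum, had 213 CPM in replicate 2 and 74.1 CPM in replicate 1 and was called higher, but not with the trend removed (0.21). Thrsp was the most abundant regulator of replicate 1, with 8.51 CPM in replicate 2 and 223 CPM in replicate 1, and was called lower in replicate 2. It remained lower with the length trend removed, at a log2 ratio of -1.89 (adjusted p = 0.00081, exact binomial test). Of 10 genes tested that activate or use acyl chains, 7 were called higher and 3 lower, and 2 and 2 with the trend removed. Soat1, which makes cholesteryl esters, had 976 CPM in replicate 2 and 406 CPM in replicate 1 and was not called with the trend removed (0.10). Acsl4, an acyl-CoA synthetase that prefers arachidonic acid, had 424 CPM in replicate 2 and 143 CPM in replicate 1 and was not called with the trend removed (-0.06).

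Fat and liver express several of the 10 genes highly, so their markers were read in the same libraries. Of 8 adipocyte markers, 7 had reads, with a summed level of 42.5 CPM in replicate 2 and 255 CPM in replicate 1. Adipoq had 1 read in replicate 2 and 24 in replicate 1, Ucp1 had none, and Lep had 0 in replicate 2 and 2 in replicate 1. Of 6 liver markers, 3 had reads, with 5.10 CPM in replicate 2 and 25.9 CPM in replicate 1, and Alb, Fgb and Serpina1a had none. Both summed levels were lower in replicate 2, where short transcripts were lower over all genes. With the length trend removed, neither the 6 adipocyte markers tested nor the 1 liver marker tested were called by the exact binomial test. Over all genes 42.4% were then called. The part of fat or liver cells in the levels of the 10 genes was not tested. Of the other cells of the gland and its blood, chromaffin markers summed to 8573 CPM in replicate 2 and 6239 CPM in replicate 1, and endothelial markers to 665 CPM in replicate 2 and 212 CPM in replicate 1. Macrophage markers summed to 264 CPM in replicate 2 and 1154 CPM in replicate 1, and erythroid markers to 225 CPM in replicate 2 and 1825 CPM in replicate 1. Lyz2 and the globins Hba-a1 and Hbb-bs had the highest levels among them in replicate 1. Csf1r and Adgre1, also macrophage markers, were called higher in replicate 2. With the length trend removed, 1 of the 5 macrophage markers was called, Lyz2, lower in replicate 2, and 3 of the 5 erythroid markers were called, all higher in replicate 2. Schwann markers summed to 97.0 CPM in replicate 2 and 190 CPM in replicate 1.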

How the data were processed

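Total RNA of mouse adrenal tissue was read in 2 long-read libraries. Each deposited table holds raw counts of reads, 1 row for each transcript model, per its file header. The authors built the models with TALON, which compares the junctions of a read with those of known transcripts and makes a new model where they differ. This was done library by library with GENCODE M21 as the annotation and mm10 as the build, per the file headers and the deposited notes on the files. No source used here gives the aligner, read correction or tool versions. A model is reported by its junction chain, and its bounds need not be those of the reads.

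Counts were summed per gene and scaled to CPM over all reads of a library. The 10 genes and the related lists were chosen with earlier results of these data known. Values are the mean ± SD of 2 libraries. Shares carry 95% Clopper-Pearson intervals that take in the counting error alone, as do limits on counts of 0, because amplified reads are not independent molecules. Nothing beyond the label of biological replicate tells the libraries' animals apart, so p-values compare these libraries only. edgeR's quasi-likelihood test could not be fitted, as 1 group of 2 libraries leaves no residual degrees of freedom between them. Genes with at least 10 reads over both libraries were tested with the exact two-sided binomial test, using library sizes scaled by TMM in edgeR 4.0.16, and called at a Benjamini-Hochberg adjusted p of 0.05. Log2 ratios use a pseudocount of 0.5 reads. The length trend is a lowess curve with a span of 0.3 over genes with at least 20 reads. Isoform use was tested with Fisher's exact test over genes with 10 or more reads in both. Unannotated spliced models were matched by junction chain, and the unspliced ones were pooled for each gene. DESeq2 1.42.0 size factors were an alternative. Other tools were R 4.3.3, Python 3.11.15, SciPy 1.17.1, statsmodels 0.14.6 and matplotlib 3.10.9.

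Tested on simulated data with 200 changed genes each, the gene ratio recovered 85% with 5 false calls among 9840 genes, the length-removed ratio 84% with 8 false calls among 9987, and isoform use 96% with 9 among 3000. The simulated counts held counting error alone, with known library sizes and lengths drawn at random. These figures check the code and give no rate of false calls in the real libraries. The 10 genes were named in full. Of each related list, the 2 genes with the highest mean level and those with no read were named. A few others, such as Cyb5a and Thrsp, were named after their values were seen. For the rest of the text the models were those with at least 5% of a gene's reads or in both libraries. Splice events, motifs and marker genes named were chosen after their values were seen.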

Additional observations from a re-analysis of the deposited data

How the results depend on the processing

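Under other scalings, filters and read sets, 5 to 8 members were called between the libraries, against 7. With the trend by longest coding transcript removed, a choice made after seeing the data, 2 were called. Log2 ratios turned round for Fads1 (-0.17 and, by longest coding transcript, -0.15) and Scd1 (-1.01 and -0.93) with the length trend removed. For Acaca, not called in the main test, they turned to 0.37 with total counts, 4.42 with the trend removed, which has no meaning for its short model, and 1.30 with spliced models only. Scd1 was called at 2.03 with spliced models only and 2.60 with annotated models only. Members with a called isoform shift, 6 in all, came to 3 with incomplete matches left out, 2 with unspliced models left out and 0 with annotated models only. Fewer members could be tested in these sets. Scd1, Scd2 and Acaca dropped out with unspliced models left out, and only Fads1, Elovl1 and Elovl5 remained with annotated models only. The difference in the most used model turned to -0.036 points for Fads1 with unspliced models left out. For Elovl1, not called, it came to -0.38, -1.70 and -5.56 points with incomplete matches left out, unspliced models left out and annotated models only. The cause was not tested. Of 67 single-gene log2 ratios under alternatives, 51 kept direction and call, and of 22 model shares 14 did. Total-count scaling moved the median log2 ratio of all genes to 0.46. Leaving out each library gave summed levels of 2101 to 11515 CPM and annotated shares of 67.9% to 86.9%, but leaves nothing to compare between libraries. No paired analysis was possible because there was 1 group. Depth limits Fads3, Acaca, Elovl6 and all splice variants, which rest on few reads.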
